A study of Homo sapiens with 22 samples.

Results

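CTNNA1 encodes alpha-catenin, and the 350 kb around it (hg19, chr5:137950000-138300000) held 188 of the 508791 CUT&Tag peaks in the lists of 22 libraries. Every peak of every list that overlapped this window was taken. The window reaches 139.1 kb before the CTNNA1 transcription start (position 138089107) and 210.9 kb past it. It held 20 SMARCA4 peaks, 27 SMARCC1 peaks, 141 H3K27ac peaks and 0 HA peaks. The window was picked because peaks of 2 BAF subunits lie close together upstream of the gene in cells given wild-type ARID1A and not in cells given an empty vector. That contrast chose the region, so it is described here and not tested.

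Alpha-catenin ties the cadherin and beta-catenin complex of adherens junctions to the actin cytoskeleton, and epithelial cells rely on it to hold to their neighbours. The BAF (SWI/SNF) complex moves nucleosomes with the energy of ATP. SMARCA4 (BRG1) is its ATPase, SMARCC1 (BAF155) is a core scaffold subunit, and ARID1A is a large DNA-binding subunit that defines the canonical form of the complex. H3K27ac is an acetyl mark of active enhancers and promoters. In CUT&Tag an antibody tethers a transposase to chromatin, and the DNA released there is sequenced.

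All libraries came from AN3CA, a human endometrial carcinoma cell line. The cells carried an empty vector (Empty, 2 replicates) or 1 of 5 forms of ARID1A (1 library each per antibody). WT is the wild-type form, CBR and delIDR1 are labelled as truncations, DBDmut is labelled as mutated in the ARID domain, and DDX4 is labelled as an IDR hybrid. SMARCA4, SMARCC1 and H3K27ac were profiled in every background, and HA was profiled in DDX4 cells. The labels do not say whether the Empty replicates were separate cultures, how the constructs were introduced, or whether a line is 1 clone.

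Lists held 5567 to 15207 SMARCA4 peaks, 9685 to 23855 SMARCC1 peaks and 31745 to 92057 H3K27ac peaks, and 5390 HA peaks. Depth was estimated from the lists as background fragments per kb. H3K27ac libraries had 3.59 to 14.5, SMARCC1 libraries 1.32 to 3.29, SMARCA4 libraries 0.913 to 1.94 and the HA library 0.463. The WT SMARCC1 library was the deepest of its antibody, and so was Empty replicate 2 for SMARCA4 and H3K27ac. The peak names carry 3 different stamps whose meaning the labels do not give. Empty replicate 1, WT, CBR, DBDmut and delIDR1 share one, DDX4 has another and Empty replicate 2 has the third, so for DDX4 the construct and the stamp cannot be told apart. Each peak has a fold, the authors' enrichment at its summit over the local background of its own library, and from the fold and the p-value the number of fragments piled up at the summit was recovered. Folds and pileups are given per library and do not rank the constructs.

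SMARCA4 was listed in the window 0 times in Empty replicate 1, 0 times in Empty replicate 2, 7 times in WT and 0 times in DDX4, with 6 peaks in DBDmut, 5 in delIDR1 and 2 in CBR. SMARCC1 was listed 1 time in Empty replicate 1, 2 times in Empty replicate 2, 11 times in WT and 0 times in DDX4, with 5 peaks in DBDmut, 6 in delIDR1 and 2 in CBR. WT had more peaks of each subunit than either Empty replicate, and DDX4 had none of either. The lists differ in length. As a share of the peaks of its own list delIDR1 stood above WT, with 0.0701% of its SMARCA4 peaks in the window against 0.0541%. For SMARCC1 peaks it was 0.0573% against 0.0461%. The SMARCA4 and SMARCC1 shares of peaks were 0.0395% and 0.0265% in DBDmut, and 0.0155% and 0.0167% in CBR. In Empty the SMARCC1 shares of peaks were 0.00733% in replicate 1 and 0.0129% in replicate 2. By share of bases the order of WT and delIDR1 was reversed. WT had 0.0624% of its SMARCA4 bases in the window against 0.0592% in delIDR1. For SMARCC1 bases it was 0.0462% against 0.0428%. Merged over libraries, the 47 peaks formed 13 regions, 7 more than 1 kb upstream of the start, 0 within 1 kb of it and 6 downstream. The 2 subunits met mostly upstream. SMARCA4 had 19 of its 20 peaks there and SMARCC1 20 of its 27, while the other 7 SMARCC1 peaks lay downstream.

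**Figure D1:**
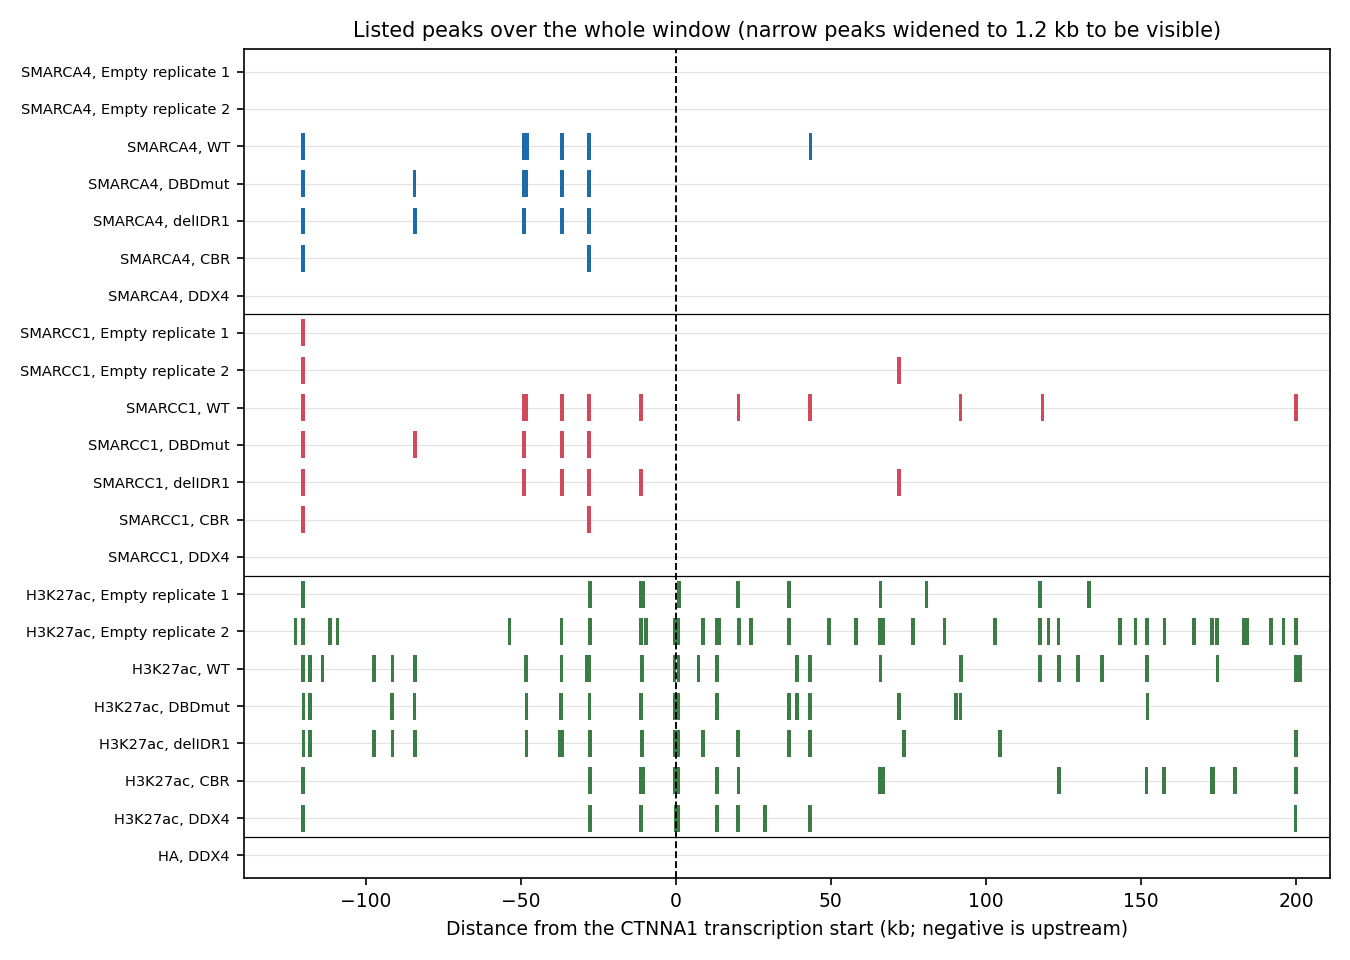
Peaks listed in the window, 1 row per library grouped by antibody, against distance from the CTNNA1 start in kb (negative is upstream; the dashed line is the start; narrow peaks are widened to be visible). SMARCA4 and SMARCC1 peaks stand mainly on the left, with 19 of 20 and 20 of 27 upstream, while H3K27ac peaks run across the whole window and the HA row is empty.

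A BAF site is defined here as a WT SMARCA4 peak that shares at least 1 bp with a WT SMARCC1 peak. All 7 WT SMARCA4 peaks in the window met this, against 75.2% of WT SMARCA4 peaks genome-wide. The pairing was seen in 5 of 6 DBDmut SMARCA4 peaks (65.0% genome-wide), 4 of 5 in delIDR1 (64.5%) and 2 of 2 in CBR (47.6%). Of the 11 WT SMARCC1 peaks, 6 met a SMARCA4 peak (39.8% genome-wide) and 9 met H3K27ac (76.8%). The distance between the summits of the subunits at the 7 sites had a median of 64 bp and ran from 4 to 385 bp, and the median over all WT BAF sites was 37 bp. WT SMARCA4 peaks had no Empty SMARCA4 counterpart in 7 of 7 cases (63.7% genome-wide), and WT SMARCC1 peaks had no Empty SMARCC1 counterpart in 10 of 11 (57.2%). The window was chosen for peaks of both subunits close together in WT and absent from Empty, so nothing is read from the WT pairing or from the absence in Empty.

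A site is called gained when neither subunit has a peak there in either Empty replicate. By that rule 6 of the 7 sites were gained, 5 upstream and 1 downstream, and 45.0% of the 9743 WT BAF sites were gained genome-wide. The 6 sites are not 6 separate elements, since 2 of them lie under 1 SMARCC1 peak. In WT their folds ran from 4.63 to 8.96 for SMARCA4, with ranks from 3113 to 12320 in a list of 12949. For SMARCC1 the gained sites' folds ran from 4.51 to 9.37, with ranks from 3891 to 22454 in a list of 23855. The counts depend on weak peaks. With only peaks of a -log10 q of at least 5 there were 3 WT BAF sites and 2 gained ones, and with all lists of an antibody shortened to the same number of peaks there was 1, the site 36.7 kb upstream.

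The farthest region upstream, 120.1 kb before the start (chr5:137968795-137969090), was the only BAF region of the window with SMARCC1 in both Empty replicates. SMARCC1 pileups there were 18 fragments in Empty replicate 1, 14 in Empty replicate 2, 29 in WT, 21 in DBDmut, 8 in delIDR1 and 15 in CBR, and DDX4 had no peak. SMARCA4 pileups were 9 in WT, 14 in DBDmut, 8 in delIDR1 and 10 in CBR, with no peak in either Empty replicate or DDX4. So every form of ARID1A except DDX4 had both subunits listed, and Empty had the scaffold subunit without the ATPase. For WT this depends on list length. Its SMARCA4 peak ranked 7018 of 12949, beyond the 5567 peaks kept with lists of equal length. The SMARCA4 peaks of DBDmut, delIDR1 and CBR ranked 2737, 3337 and 3803 in their lists. With equal lists WT, like Empty, thus has SMARCC1 alone here. H3K27ac was listed in all 7 backgrounds, with folds of 8.26 in Empty replicate 1, 7.81 in Empty replicate 2, 5.58 in WT, 6.52 in CBR, 6.69 in DBDmut, 6.0 in delIDR1 and 6.74 in DDX4.

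A region 84.3 kb upstream (chr5:138004733-138005044) had no WT BAF peak. DBDmut had both subunits, with 7 SMARCA4 and 8 SMARCC1 fragments, and delIDR1 had SMARCA4 alone, with 7. It was the only upstream region where mutants had BAF peaks and WT had none. H3K27ac was nevertheless listed in WT with a fold of 11.1, in DBDmut with 8.09 and in delIDR1 with 8.33, and in neither Empty replicate, CBR nor DDX4. The WT acetylation peak was 537 bp wide and the DBDmut peak 1007 bp.

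The core of the cluster spans 49.0 to 28.0 kb upstream and holds 5 gained sites in 4 regions. The first region (chr5:138040002-138040255), 49.0 kb upstream, had SMARCA4 pileups of 10 fragments in WT, 17 in DBDmut and 13 in delIDR1, and SMARCC1 pileups of 23, 22 and 14 in the same order. Neither Empty replicate, CBR nor DDX4 had a peak of either subunit. The 3 backgrounds with both subunits differed in where the acetylation peak began. The WT H3K27ac peak overlapped the site, starting inside it at position 138040048 and running 1433 bp. The H3K27ac peaks of DBDmut and delIDR1 began at 138040534 and 138040563, beyond the site, and overlapped the WT acetylation peak.

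The neighbouring region (chr5:138040570-138041348), 48.2 kb upstream, is where 1 WT SMARCC1 peak of 779 bp with 23 fragments covers 2 WT SMARCA4 peaks. These had summits 48.3 and 48.0 kb upstream and pileups of 10 and 8. DBDmut had 1 SMARCA4 peak of 336 bp touching both, with 11 fragments, and no SMARCC1 peak. delIDR1, CBR, DDX4 and both Empty replicates had neither subunit. H3K27ac was listed in WT with a fold of 7.19, in DBDmut with 6.42 and in delIDR1 with 5.19. In delIDR1 the acetylated interval was thus listed with no BAF peak in the region, and its BAF peaks were at the first region beside it.

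**Figure D2:**
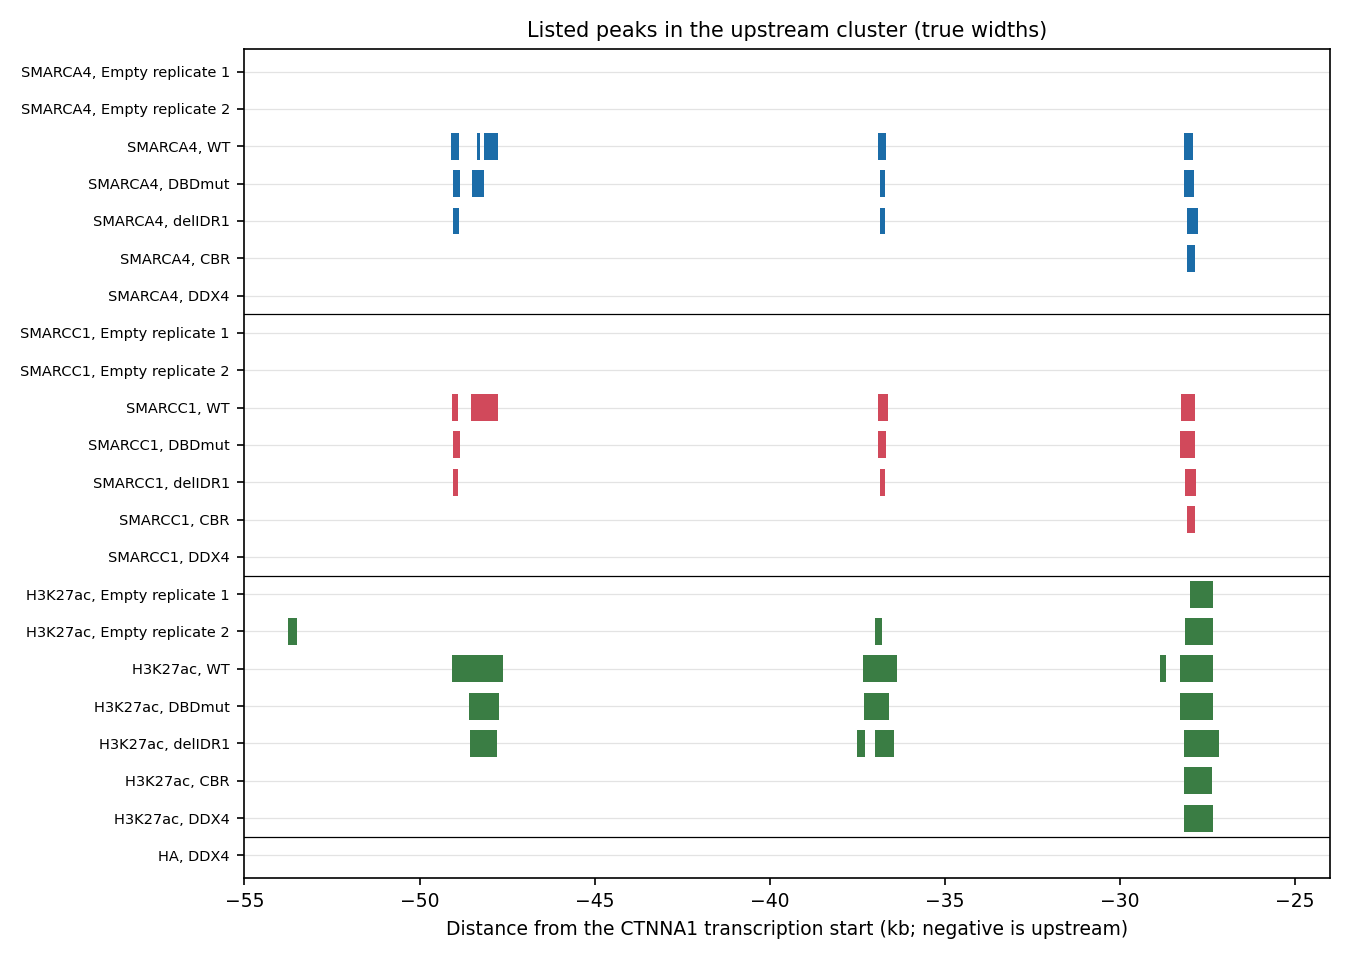
Listed peaks from 55 to 24 kb upstream of the CTNNA1 start at their true widths, 1 row per library grouped by antibody. WT, DBDmut and delIDR1 have BAF peaks at 49.0, 36.8 and 28.0 kb, CBR at 28.0 kb alone, and Empty and DDX4 have none, while H3K27ac near 28 kb is in all 7 rows.

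The third region (chr5:138052195-138052482), 36.8 kb upstream, held the gained site with the highest WT folds of both subunits. SMARCA4 pileups were 13 in WT, 8 in DBDmut and 9 in delIDR1, and SMARCC1 pileups were 26, 18 and 11. Both subunits were listed in these 3 backgrounds and in no other. H3K27ac folds were 10.4 in WT, 8.02 in DBDmut, 8.96 in delIDR1 and 3.62 in Empty replicate 2, the deepest H3K27ac library, and Empty replicate 1, CBR and DDX4 had no peak. The WT acetylation peak was 975 bp wide and that of Empty replicate 2 was 211 bp, with 59 and 13 fragments at their summits.

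The fourth region (chr5:138060837-138061336), 28.0 kb upstream, was the one gained site where CBR had both subunits listed. Its SMARCA4 peak in CBR was weak, with a -log10 q of 3.37, and the call was lost (0 sites in CBR) with a -log10 q of at least 5 and with lists of equal length. SMARCA4 pileups were 10 in WT, 16 in DBDmut, 11 in delIDR1 and 6 in CBR, and SMARCC1 pileups were 21, 21, 12 and 10. Neither Empty replicate nor DDX4 had a peak of either subunit. Acetylation did not follow that split. H3K27ac was listed with folds of 10.8 in Empty replicate 1, 5.68 in Empty replicate 2, 7.90 in WT, 8.48 in CBR, 6.08 in DBDmut, 6.66 in delIDR1 and 8.04 in DDX4. H3K27ac thus overlapped this region in every background, with and without added ARID1A. BAF peaks were listed only with WT and 3 of the mutants. The acetylation summits differed in place. They lay 27.5 kb upstream in Empty replicate 1, CBR and DDX4, against 28.0 kb in WT and Empty replicate 2. The DBDmut and delIDR1 summits lay 28.1 and 27.8 kb upstream, and the WT SMARCA4 summit 28.1 kb. With summits within 200 bp, H3K27ac was at 0 gained sites in Empty replicate 1 and in CBR.

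The last upstream region (chr5:138077884-138078059), 11.1 kb before the start, had SMARCC1 alone, with 10 fragments in WT and 7 in delIDR1. H3K27ac was listed there in all 7 backgrounds. The WT acetylation peak was 1278 bp wide, and the widest peak of the other backgrounds was 749 bp, in delIDR1. In Empty replicate 1 and in CBR the same interval held 2 separate peaks each.

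**Figure D3:**
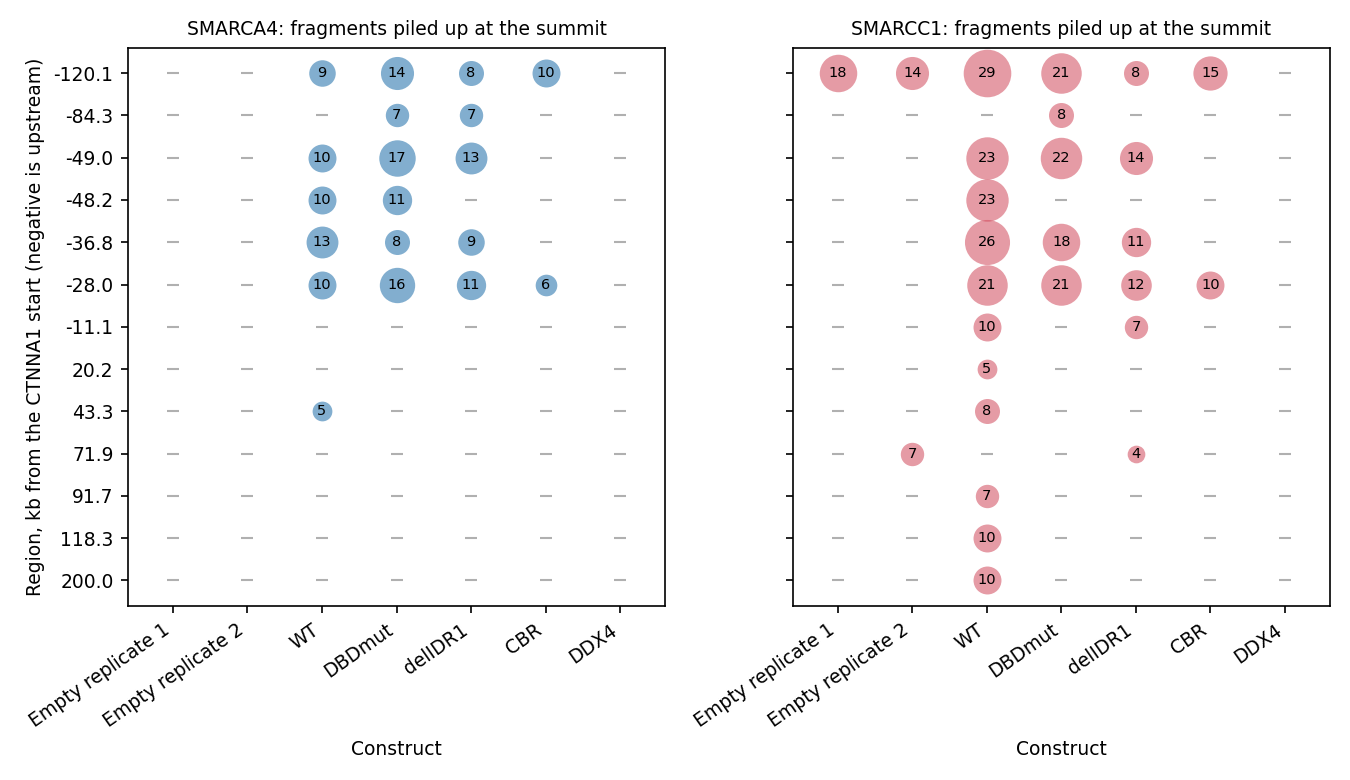
Fragments piled up at the summit of SMARCA4 (left) and SMARCC1 (right) peaks in the 13 merged regions, by construct; circle area and the printed number give the pileup, a dash marks no listed peak, and rows are kb from the CTNNA1 start (negative is upstream). At 49.0, 36.8 and 28.0 kb upstream WT, DBDmut and delIDR1 all have both subunits, and the DDX4 column is empty.

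Across the 6 gained sites, both subunits were listed at 3 in delIDR1 (14.0% of gained sites genome-wide), 3 in DBDmut (35.5%), 0 in DDX4 (0.479%) and 1 in CBR (5.50%). The 3 sites were the same in DBDmut and delIDR1, those at 49.0, 36.7 and 28.1 kb upstream. SMARCA4, with or without SMARCC1, was at 5 of the 6 in DBDmut (44.9% genome-wide), where 1 peak touched 2 sites. With 6 sites these counts are coarse beside the genome-wide shares. With lists of equal length the 1 gained site left had both subunits in delIDR1 and not in DBDmut.

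H3K27ac was listed at 6 of the 6 gained sites in WT (89.3% genome-wide), 5 in delIDR1 (65.5%), 5 in DBDmut (72.4%), 2 in DDX4 (26.9%), 1 in CBR (26.6%), and for Empty 1 in replicate 1 (12.9%) and 2 in replicate 2 (21.9%). The site overlapped by H3K27ac in CBR, DDX4 and both Empty replicates was that 28.1 kb upstream. In DBDmut and delIDR1 the site without H3K27ac was that at 49.0 kb, where both subunits were listed. These are counts of sites and not of separate acetylation peaks. In WT 1 H3K27ac peak met the sites at 49.0, 48.3 and 48.0 kb upstream. In DBDmut 1 H3K27ac peak met those at 48.3 and 48.0 kb, and so did 1 in delIDR1. Summits of H3K27ac and SMARCA4 in WT lay a median of 77 bp apart over the 7 sites, from 48 to 901 bp, and a median of 57 bp apart genome-wide.

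Depth was set beside the missing peaks by scaling the WT pileups of the 6 gained sites to each other library. This gives 12 values per background, 1 for each site and subunit. The 12 are not separate peaks. The sites 48.3 and 48.0 kb upstream share 1 WT SMARCC1 peak, whose scaled value is counted for each of them. The DBDmut SMARCA4 peak that touches both sites is likewise counted as listed for each. In DDX4, 10 of 12 scaled values were above the lowest pileup in the corresponding list and 0 of 12 had a listed peak. In CBR it was 11 of 12, with 2 listed. For Empty it was 12 of 12 in each replicate, where the absence of a listed peak is part of the definition of a gained site and so is no outcome. DBDmut had 10 of 12 above with 8 listed, and delIDR1 10 of 12 with 6 listed. The stricter comparison, of the p-value at the scaled local background with the lowest p-value strength in the list, passed 9 values in DDX4, 9 in CBR, 7 in DBDmut, 9 in delIDR1, and for Empty 10 values in replicate 1 and 11 in replicate 2. For SMARCA4 in DBDmut it passed 2 of 6 values, while 5 of the 6 had a listed peak. A scaled value that failed was thus no sign that a peak could not be listed. The estimated depth does not measure the share of fragments that fall in peaks, and whether that share differs between libraries was not tested.

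Scaling took the smaller of its depth ratios, which keeps the scaled values low. On that scale, the listed pileups were above the scaled WT values at the sites kept by DBDmut and delIDR1. At 49.0 kb upstream the SMARCA4 pileup of 10 in WT scaled to 5.95 in DBDmut, where 17 was listed, and to 6.70 in delIDR1, where 13 was listed. At 36.7 kb the scaled SMARCA4 values were 7.74 and 8.71, and 8 and 9 were listed. For SMARCA4 the gap was thus wide at the first site and under 1 fragment at the second. The direction at the second site depends on the ratio. The lowest SMARCA4 backgrounds were 0.138 in WT, 0.094 in DBDmut and 0.115 in delIDR1. Scaled by these instead, the WT values at 36.7 kb would exceed the listed ones in both. SMARCC1 at 36.7 kb had 18 fragments listed in DBDmut against 11.1 scaled, and 11 in delIDR1 against 8.61. In CBR the 28.1 kb site went the other way, with 6 SMARCA4 fragments listed against 7.74 scaled, and 10 SMARCC1 fragments against 13.1. Peaks enter a list only when high enough, so listed values are drawn from the upper side.

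**Figure D4:**
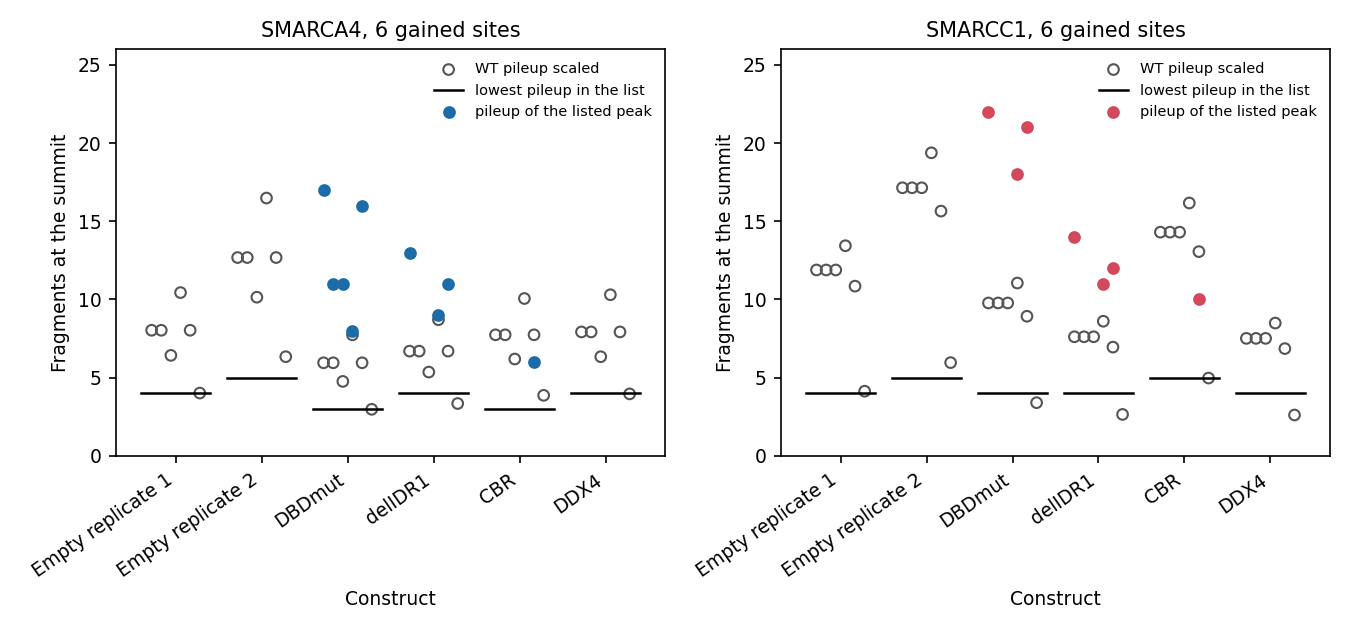
Fragments at the summit of SMARCA4 (left) and SMARCC1 (right) at the 6 gained sites, by construct: open circles are WT pileups scaled to that library, filled circles are pileups of peaks listed there, and the black line is the lowest pileup in the list. In DDX4 10 of 12 open circles are above the line and there are no filled ones, Empty has no filled circles by the definition of a gained site, and in DBDmut 2 filled SMARCA4 points at 11 are the same peak.

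Beyond BAF sites, H3K27ac peaks numbered 27 in WT, 11 upstream, 2 within 1 kb of the start and 14 downstream. Of these, 14 had no H3K27ac peak in either Empty replicate (40.0% of WT H3K27ac peaks genome-wide), 7 of the 11 upstream, 0 of the 2 at the promoter and 7 of the 14 downstream. Among the 14, 7 were also in DBDmut (41.2% genome-wide), 6 in delIDR1 (33.1%), 1 in DDX4 (7.50%) and 0 in CBR (7.70%). Upstream alone, DBDmut had 4 of 7, delIDR1 5 of 7, CBR 0 and DDX4 0.

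The pattern of listing in WT, DBDmut and delIDR1 and nowhere else held for 4 WT peaks (7.13% of all WT H3K27ac peaks), and all 4 were upstream. They lay 118.0, 91.4, 84.2 and 48.3 kb before the start as medians over libraries. At 118.0 kb the folds were 5.58 in WT, 4.35 in DBDmut and 5.72 in delIDR1, and at 91.4 kb they were 5.06, 3.69 and 4.69. No SMARCA4 or SMARCC1 peak of any list touched these 2 intervals. A further peak 97.4 kb upstream was in WT with a fold of 10.1 and in delIDR1 with 4.39, also with no BAF peak. The remaining 2 upstream WT peaks absent from Empty, 113.8 and 28.8 kb before the start, were in WT alone with folds of 3.86 and 3.57. Going the other way, 5 of the 16 upstream H3K27ac regions were in Empty replicate 2 alone, and none of the 5 met a BAF peak.

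In covered length, upstream H3K27ac peaks took up 6.86 kb in WT, 4.79 kb in delIDR1, 4.66 kb in DBDmut, 2.83 kb in Empty replicate 2, 1.63 kb in CBR, 1.54 kb in DDX4 and 1.15 kb in Empty replicate 1. WT, delIDR1 and DBDmut were above both Empty replicates, and CBR and DDX4 lay between those replicates. As a share of all bases in a library's H3K27ac peaks, the upstream peaks made up 0.0331% in WT, 0.0311% in delIDR1, 0.0249% in DBDmut, 0.0121% in CBR, 0.0109% in Empty replicate 1, 0.00888% in DDX4 and 0.00761% in Empty replicate 2. By share the first 3 were again above Empty, but CBR was above both Empty replicates and the order of the replicates was reversed. Downstream the order differed. Empty replicate 2 had 9.39 kb in 28 peaks, WT 3.48 kb in 14, CBR 2.83 kb in 11, DBDmut 1.91 kb in 8, DDX4 1.87 kb in 5, delIDR1 1.82 kb in 7 and Empty replicate 1 0.973 kb in 6. The 2 Empty replicates thus bracket every other background downstream, and Empty replicate 2 is the deepest H3K27ac library at 14.5 fragments per kb against 4.49 in WT.

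**Figure D5:**
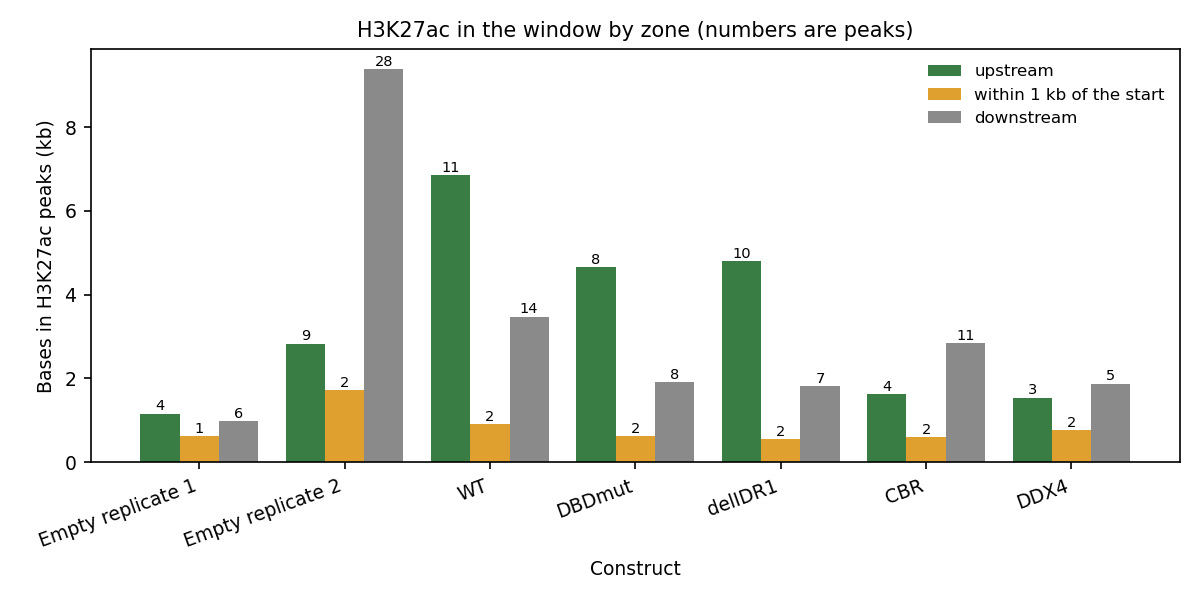
Bases inside H3K27ac peaks in kb, by construct, for peaks upstream of the CTNNA1 start, within 1 kb of it and downstream; the number on each bar is the number of peaks. Upstream bars are highest in WT, delIDR1 and DBDmut (6.86, 4.79 and 4.66 kb), and the downstream bar of Empty replicate 2 (9.39 kb) stands above all others.

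The promoter itself was acetylated without BAF peaks. H3K27ac formed 2 regions within 1 kb of the start. The first, just before it (chr5:138088168-138089367), had folds of 6.34 in Empty replicate 2, 4.56 in WT, 4.47 in DBDmut, 4.24 in CBR, 4.14 in delIDR1 and 3.66 in DDX4, and no peak in Empty replicate 1. The second, just after it (chr5:138089573-138090407), had folds of 8.58 in Empty replicate 1, 3.70 in Empty replicate 2, 6.93 in WT, 5.37 in CBR, 4.24 in DBDmut, 4.51 in delIDR1 and 5.11 in DDX4. So acetylation at the gene's start was listed in every background, with and without added ARID1A. No SMARCA4 or SMARCC1 peak of any list lay within 1 kb of the start.

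RefSeq gives 4 promoter windows of 300 bases for CTNNA1 in GRCh38.p14, a later build than that of the peaks, so the windows were not joined to the peaks by position. They form 2 pairs of nearby windows, and windows 3 and 4 lie far downstream of windows 1 and 2. A motif in window 4 is thus not placed at the acetylated start described above. Window 1 (GRCh38.p14, chr5:138753175-138753474, plus strand) and window 4 (GRCh38.p14, chr5:138875150-138875449, plus strand) are shown because they contrast in base composition and because window 4 alone held a motif that was searched. The lines give the 250 bases before the start, with that motif, the CRE letters TGACGTCA, in capitals.
CTNNA1 window 1: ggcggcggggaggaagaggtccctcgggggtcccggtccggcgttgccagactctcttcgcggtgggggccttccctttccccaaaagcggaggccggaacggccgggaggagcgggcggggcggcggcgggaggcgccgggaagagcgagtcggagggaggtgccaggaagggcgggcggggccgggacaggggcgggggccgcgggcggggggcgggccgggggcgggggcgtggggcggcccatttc
CTNNA1 window 4: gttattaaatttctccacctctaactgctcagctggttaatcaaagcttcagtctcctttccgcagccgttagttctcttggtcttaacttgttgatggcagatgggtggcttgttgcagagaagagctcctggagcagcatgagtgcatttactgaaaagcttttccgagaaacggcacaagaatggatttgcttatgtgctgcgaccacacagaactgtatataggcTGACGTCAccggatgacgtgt
Window 1 is 77.7% G and C over its 300 bases and window 4 is 44.7%, beside a median of 58.7% over 35116 RefSeq windows. Searched on both strands, the CRE motif TGACGTCA was in 1 of the 4 windows and in 1.85% of all windows. The AP-1 motif TGANTCA (7.71% of all windows), the TEAD motif GGAATG (14.0%) and the E-box CACCTG (20.6%) were in 0 of the 4. A match describes letters only. The sequences under the upstream peaks were not used here, because no genome of the build of the peaks was at hand.

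Downstream, across the body of CTNNA1 and beyond, BAF peaks were few and mostly of 1 subunit in 1 background. The exception was the gained site 43.3 kb past the start (chr5:138132198-138132573), where WT SMARCA4 with 5 fragments and WT SMARCC1 with 8 overlapped by 9 bp. No other background had either subunit, and H3K27ac was listed in WT with a fold of 7.97, in DBDmut with 4.92, in delIDR1 with 4.85 and in DDX4 with 5.28. Its SMARCA4 rank of 11619 and SMARCC1 rank of 22454 place it near the ends of the WT lists. When the overlap must reach 50% of the shorter peak it is not a site.

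Single SMARCC1 peaks of WT lay 20.2, 91.7, 118.3 and 199.97 kb downstream, with 5, 7, 10 and 10 fragments. That at 118.3 kb met no H3K27ac peak of any list. That at 20.2 kb met H3K27ac in both Empty replicates, CBR, delIDR1 and DDX4 and not in WT. The region 71.9 kb downstream (chr5:138160884-138161153) was the only one where Empty had a BAF peak and WT had none, with 7 SMARCC1 fragments in Empty replicate 2 and 4 in delIDR1.

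H3K27ac downstream fell into 45 regions, and 0 of these were listed in all 7 backgrounds, beside 3 of 16 upstream. In 29 of the 45 a single background had the peak, and 15 were in Empty replicate 2 alone. WT had 14 of the 45 regions, and 23 were in Empty and not in WT. RefSeq places LRRTM2, which encodes a synaptic adhesion protein, inside CTNNA1 and SIL1, which encodes a co-chaperone of the endoplasmic reticulum, next after it. Starting ahead of CTNNA1, it lists the lncRNAs CTNNA1-AS1 and LOC105379193, the pseudogene RPL10AP10 and snoRNAs including LOC124901196. Their distances from the upstream peaks were not measured. CTNNA1 is 181.6 kb long in GRCh38.p14, so peaks at the far right of the window may lie outside the gene, and the upstream peaks were assigned to CTNNA1 by position alone.

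In DDX4 no BAF or HA peak was listed in the window. Its nearest peaks to the left of the window lay 177.8 kb upstream of the start for HA, 177.7 kb for SMARCA4 and 177.6 kb for SMARCC1, and the nearest to the right lay 520.5, 402.0 and 445.1 kb downstream. The SMARCA4 lists of Empty replicates 1 and 2, also empty in the window, had their nearest left peaks 177.6 and 177.8 kb upstream. These 5 lists thus share a stretch where peaks were called, 177.6 to 177.8 kb upstream. It lies well beyond the left edge of the window at 139.1 kb. H3K27ac in DDX4 was listed 10 times in the window, 3 upstream, 2 at the promoter and 5 downstream.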

How the data were processed

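CUT&Tag libraries of SMARCA4, SMARCC1, H3K27ac and HA in AN3CA cells were grouped by the construct and antibody in the sample titles. A commercial kit's procedure was followed for nuclei and libraries, per the labels' protocols. Coordinates are hg19 and bcl2fastq was used, per the submitters' processing notes. Which aligner, peak caller or control library was used is not given in the sources used here.

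The authors deposited 1 narrowPeak list per library, without pooling of replicates. Each peak has, in the deposited lists, a score, a fold, the -log10 of its p-value and of its q-value, and a summit position. These belong to a peak in its own list. The fold was read as a ratio of summit pileup to local background with 1 added to each. At low backgrounds it is thus below the plain ratio. Whole pileups were recovered from fold and p-value, read as a Poisson tail, with a tolerance of 0.001 on the -log10 scale, in at least 99.9% of each list's peaks. Depth in fragments per kb is the lowest background over the shortest peak length. Scaling used the smaller of the ratio of fragments per kb and the ratio of lowest backgrounds.

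Peaks sharing at least 1 bp overlapped. Zones follow the summit: within 1 kb of the start, upstream or downstream. Each WT BAF site, each HA peak, each BAF region in at least 3 backgrounds and each BAF region without a WT peak is named. The members, zones and rules were chosen with earlier results of these data known. With 1 library per construct no difference has a test. Code was tested on simulated data. Alternatives were a q limit, equal list lengths, stricter overlaps, single subunits and either Empty replicate left out. Python 3.11.15, numpy 2.4.6, scipy 1.17.1, pandas 2.3.3 and matplotlib 3.10.9 were used. Promoters of other junction genes were not analysed here, since no hg19 annotation was used.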

Additional observations from a re-analysis of the deposited data

How the results depend on the processing

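The window counts rest on a few weak peaks. With peaks of a -log10 q of at least 5, WT BAF sites fell from 7 to 3, gained sites from 6 to 2 and gained sites with both subunits in CBR from 1 to 0. H3K27ac was then at 2 gained sites in WT, 2 in DBDmut, 2 in delIDR1, 1 in DDX4 and 1 in Empty replicate 2. With lists of equal length there was 1 WT BAF site and 1 gained site. Both subunits were at 0 gained sites in DBDmut, 1 in delIDR1 and 0 in CBR, and H3K27ac at 1 in WT, 1 in DBDmut, 1 in delIDR1 and 0 in CBR, DDX4, Empty replicate 1 and Empty replicate 2. With an overlap of 50% of the shorter peak, H3K27ac was at 0 gained sites in Empty replicate 1 and 1 in DDX4. With summits within 200 bp, it was at 0 in Empty replicate 1, 0 in CBR, 3 in delIDR1 and 1 in DDX4. With SMARCA4 alone, gained sites present numbered 6 in DBDmut and 2 in CBR, and H3K27ac was at 2 in Empty replicate 1 and 2 in CBR. With SMARCC1 alone there were 11 WT sites and 10 gained ones, with H3K27ac at 3 in Empty replicate 1, 5 in Empty replicate 2, 4 in CBR and 5 in DDX4. The cause of these differences was not tested. Leaving out Empty replicate 1 or 2 left 6 gained sites. The comparison at the scaled local background was chosen after seeing the data. In all, 36 values were classed as moved and 74 as the same, and the second class includes smaller changes. Gained sites, for example, went from 6 to 5 with an overlap of 50% of the shorter peak. Gained sites with both subunits went from 3 to 2 in DBDmut and in delIDR1 with a -log10 q of at least 5. No paired analysis was possible because replicate numbers exist only for Empty. Depth limits what an unlisted peak shows: in DDX4, 2 of the 12 scaled values did not exceed the lowest pileup of the list.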
